A study of Homo sapiens with 6 samples.

Results

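The EGFR family receptors and ligands were taken as 10 genes: the receptors EGFR, ERBB2 and ERBB3, the ligands AREG, EREG, HBEGF, TGFA, EPGN and NRG1, and the receptor inhibitor ERRFI1. They were found by symbol in the gene expression table of the study. All 10 were listed among 74852 loci, and all 10 passed the minimum mean of 10 normalized reads that left 18849 loci for the test, EREG and EPGN only narrowly with means of 11.1 and 12.4. The normalized read count is the number of reads on a locus divided by the size factor of the library. RNA came from MDA-MB-231, an established human triple-negative breast cancer line in which no gene was altered other than by siRNA. The cells were transfected in 2 rounds with Lipofectamine RNAiMAX, with non-targeting siRNAs in the 3 si-CTRL libraries and with 4 pooled siRNAs directed at SAM68 in the 3 si-SAM68 libraries, and the labels place the harvest at 24 h after the last round. The comparison addressed here is which receptors and ligands of the family differ in RNA level when Sam68, the RNA-binding splicing regulator encoded by KHDRBS1, is depleted.

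The receptors of this family sit in the plasma membrane, pair with each other when a ligand binds, and pass the signal on through the RAS, MAP kinase and PI3 kinase routes. ERBB2 has no known ligand of its own and ERBB3 has little kinase activity, so that these members act mainly within pairs. The ligands are made as membrane precursors that ADAM proteases release. EGFR is abundant in many triple-negative tumors, which by definition lack ERBB2 amplification and the estrogen and progesterone receptors.

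The siRNAs of the pool are shown because they define the treatment and because the 7 bases in capitals can also pair with other transcripts. Each is printed as the strand that matches KHDRBS1, and the capitals are the bases that pair with positions 2 to 8 of the guide strand, its seed.
siSAM68_1: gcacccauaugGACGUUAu
siSAM68_2: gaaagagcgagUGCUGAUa
siSAM68_3: uaugauggaugAUAUCUGu
siSAM68_4: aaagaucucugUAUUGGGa
All 4 matched the coding sequence of KHDRBS1 in GENCODE (GRCh38), at chr1:32042603-32042621 in exon 9, chr1:32030383-32030401 in exon 2, chr1:32036912-32036930 in exon 5 and chr1:32031595-32031613 in exon 3, on the forward strand.

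KHDRBS1 itself had 14960.0 ± 620 normalized reads in si-CTRL and 618 ± 45.8 in si-SAM68 (SD, n = 3 each), or 4.13% of the control level. The libraries held 52625492 to 82568487 reads, of which 13836 to 18841 lay on the 10 members. The share of reads on a ribosomal RNA locus was 15.1% for si-SAM68 replicate 2 and 1.83% to 3.17% for the other 5 libraries. Without that library ERBB3 (adjusted p = 0.013 by limma) and HBEGF (log2 fold change -0.81, adjusted p = 0.0332) still passed the test described below, and NRG1 (0.38, adjusted p = 0.118) did not. VIM, CD44, AXL and FN1, markers of mesenchymal-like breast lines to which MDA-MB-231 belongs, had means of 48591 to 167541 normalized reads in si-CTRL. The luminal markers were divided: PGR was at 0 in all libraries and CDH1, EPCAM and ESR1 stayed below 16, whereas KRT18 (24840.3), KRT8 (17463), KRT19 (1460.2), FOXA1 (826) and GATA3 (427) were well above the minimum in si-CTRL. The summed level of 5 blood and endothelial markers was 41.8 to 63.7 in si-CTRL and 22.3 to 33.1 in si-SAM68, of which CDH5 made up 11.2 to 42.5.

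Sam68-depleted cells had about double the ERBB3 RNA, more NRG1 RNA and less HBEGF RNA than control cells, whereas EGFR and ERBB2 RNA did not pass the test and their groups overlapped. The change was 1.98-fold for ERBB3, 1.32-fold for NRG1 and 1.68-fold downward for HBEGF. These 3 of 10 members, 2 higher and 1 lower, had an adjusted p-value below 0.05 by limma, against 10.7% of all loci tested (4.47% higher and 6.23% lower). Without replicate 1 or replicate 3 of si-SAM68 the number was 1, ERBB3. ERBB3 and HBEGF also passed the thresholds used in the study, a 1.5-fold change with an unadjusted p-value no higher than 0.05. These were applied here to the limma fit, in which 7.67% of the loci (1445) passed, so they are not calls made by the study. The groups did not overlap for 5 members, against 33.9% of loci, and the median log2 fold change was 0.02 over the members and 0.01 over all loci. Fold changes are on the scale of log2(normalized read count + 1), and nothing in the labels says that the libraries came from separate cultures, so that the p-values measure the spread between these libraries only.

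**Figure D1:**
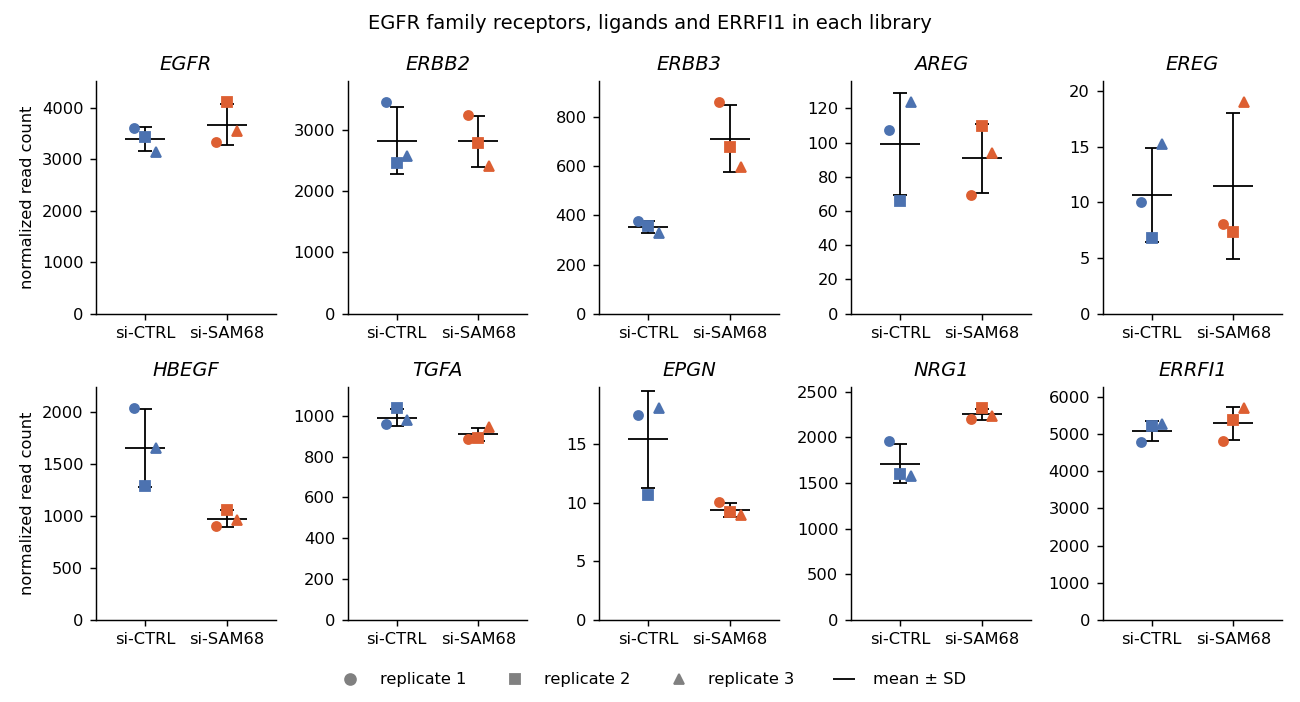
Normalized read count of each member (vertical axis, from 0, with its own scale in each panel) in the 3 si-CTRL (blue) and 3 si-SAM68 (orange) libraries. Symbols are replicates and black lines are the mean ± SD. The groups are separate for ERBB3, HBEGF, TGFA, EPGN and NRG1, and they overlap for EGFR, ERBB2, AREG, EREG and ERRFI1.

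Among the receptors, ERBB3 (chr12:56473809-56497291, hg19), the partner that recruits PI3 kinase when phosphorylated, was at 377, 358 and 329 normalized reads in the si-CTRL libraries, given here and below by replicate number. The si-SAM68 libraries held 861, 680 and 597. All si-SAM68 libraries therefore lay far above the control libraries, and the spread was larger among them. The mean rose from 355 ± 24.4 to 713 ± 135 (SD, n = 3), a log2 fold change of 0.99 (SE 0.14, 95% interval 0.68 to 1.30, adjusted p = 0.00297 by limma). Only 3.08% of the loci tested had a larger absolute change. si-SAM68 replicate 1 was the highest library, and without it the log2 fold change was 0.84. With 3 against 3 libraries an exact permutation test cannot go below p = 0.1, the value it gave for each member whose groups did not overlap. The PMEL locus spans ERBB3 in the annotation used and had a mean of 85.9 normalized reads in si-CTRL and 107 in si-SAM68, much less than the difference at ERBB3.

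EGFR (chr7:55041918-55324297, hg19), the receptor for EGF and most other ligands of the list, was at 3602, 3428 and 3138 normalized reads in si-CTRL and at 3332, 4104 and 3551 in si-SAM68. The groups overlapped. The log2 fold change was 0.11 (95% interval -0.11 to 0.32, adjusted p = 0.509 by limma), so that a change of more than about 1.25-fold in either direction lies outside the interval. Unnamed loci lie within the span of EGFR, and the largest of them, chr7:55277113-55279319, carried 7768 normalized reads in si-CTRL and 8267 in si-SAM68, more than the EGFR locus itself. Adding the 8 unnamed loci in the span, a step chosen after the values were seen, gave 12467 ± 512 in si-CTRL and 13181 ± 1357 in si-SAM68, and a log2 fold change of 0.08 (95% interval -0.12 to 0.27). Whether these reads come from EGFR transcripts was not tested.

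ERBB2 (chr17:37844167-37884915, hg19), the preferred partner of the other receptors, shares its locus with the microRNA gene MIR4728. It was at 3447, 2455 and 2563 normalized reads in si-CTRL and at 3242, 2782 and 2413 in si-SAM68. The means, 2822 ± 544 and 2812 ± 415, were nearly equal, and replicate 1 was the highest library in both groups. The 95% interval of the log2 fold change ran from -0.32 to 0.32. Its ends overlap those of PGAP3 and MIEN1 in the annotation, and the counting rule for shared bases is not given in the sources used here. ERBB4, the remaining receptor, had no read in any of the 6 libraries, where 3 reads would have been 2.76 to 3.75 normalized reads.

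Among the ligands, HBEGF (chr5:139712429-139728927, hg19), a heparin-binding ligand of EGFR and ERBB4, was at 2037, 1286 and 1651 normalized reads in si-CTRL. It was at 902, 1060 and 961 in si-SAM68. The control libraries were widely spread, yet the lowest of them was above all si-SAM68 libraries. The mean fell from 1658 ± 376 to 974 ± 79.9, a log2 fold change of -0.75 (SE 0.15, 95% interval -1.08 to -0.41, adjusted p = 0.0147 by limma). When si-SAM68 replicate 1 was left out the adjusted p-value was 0.0686, and when replicate 3 of that group was left out it was 0.0785, the highest of the alternatives, whose range began at 1.89e-05. Without si-CTRL replicate 1, the highest library, the log2 fold change was -0.58 and just missed the 1.5-fold threshold.

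NRG1 (chr8:31496738-32625474, hg19), a neuregulin that binds ERBB3 and ERBB4, moved the other way. Its normalized read count was 1957, 1597 and 1583 in si-CTRL and 2202, 2320 and 2239 in si-SAM68. The si-SAM68 libraries were close to each other and above every control library. The mean rose from 1712 ± 212 to 2254 ± 60.3, a log2 fold change of 0.40 (SE 0.10, 95% interval 0.18 to 0.62, adjusted p = 0.0301 by limma), which is below 1.5-fold. This call was the least stable of the 3: the adjusted p-value was between 0.0802 and 0.118 when any library other than si-CTRL replicate 1 was left out, and the alternatives ranged from 0.00101 to 0.118. Of all loci tested, 21.5% had a larger absolute change.

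TGFA (chr2:70674414-70781147, hg19), a ligand of EGFR, was at 957, 1036 and 979 normalized reads in si-CTRL and at 886, 892 and 947 in si-SAM68. The groups did not overlap, but the difference was small: the log2 fold change was -0.13 (95% interval -0.32 to 0.07, adjusted p = 0.388 by limma). AREG (chr4:75310815-75320727, hg19), another EGFR ligand, was at 107, 65.9 and 124 in si-CTRL and at 69.5, 109 and 93.8 in si-SAM68, with overlapping groups and an interval from -0.68 to 0.48. The hg19 assembly holds a near-identical copy of AREG with which it can share reads, so its level is uncertain.

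EREG and EPGN, both ligands of EGFR, were close to the detection limit. EREG was at 10.0, 6.78 and 15.2 normalized reads in si-CTRL and at 8.06, 7.36 and 19.0 in si-SAM68, which makes a change of less than about 2-fold undetectable (95% interval of the log2 fold change -1.05 to 1.14). EPGN was at 17.5, 10.7 and 18.1 in si-CTRL and at 10.1, 9.20 and 8.94 in si-SAM68. Its groups did not overlap, and the log2 fold change of -0.62 did not pass the test (95% interval -1.47 to 0.22, adjusted p = 0.323 by limma). An unnamed locus overlapping EPGN had a mean of 9.34 normalized reads in si-CTRL and was at 0, 1.84 and 0 in si-SAM68. With its reads added to EPGN the log2 fold change was -1.21 and the adjusted p-value 0.0439, the lowest of the alternatives for EPGN, which reached 0.553. The unnamed locus, chr4:75144019-75196261, reaches beyond EPGN (chr4:75174187-75182520) on both sides. Whether its reads come from EPGN transcripts was not tested.

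ERRFI1 (chr1:8071780-8086393, hg19), the cytoplasmic protein that binds and blocks the EGFR kinase domain, had the highest read count of the 10 named loci. It was at 4779, 5221 and 5277 normalized reads in si-CTRL and at 4813, 5368 and 5696 in si-SAM68. The groups overlapped, and the 95% interval of the log2 fold change, -0.14 to 0.25, leaves out any change beyond about 1.19-fold.

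**Figure D2:**
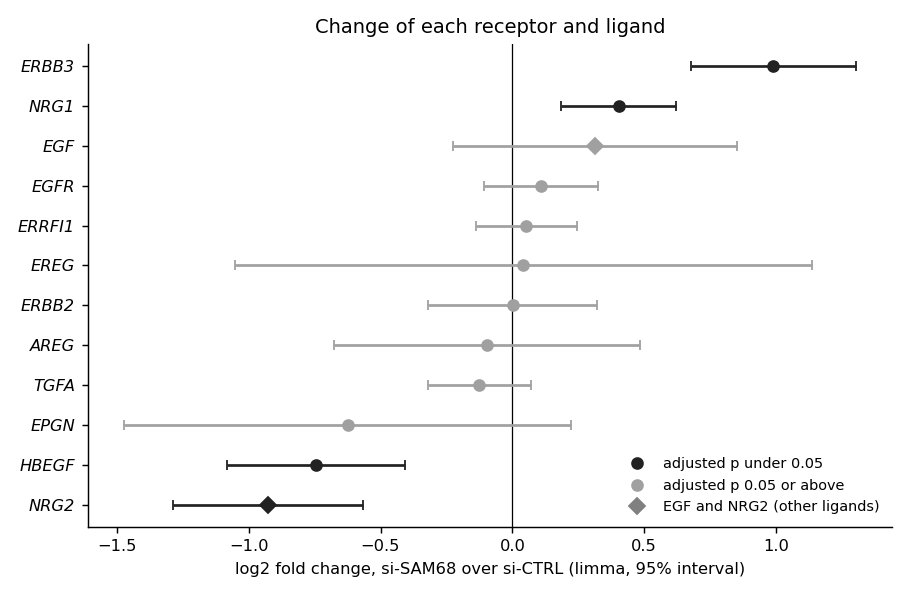
Log2 fold change of si-SAM68 over si-CTRL with its 95% interval by limma (horizontal axis) for the 10 members (circles) and for EGF and NRG2 (diamonds), with adjusted p-values below 0.05 in black. ERBB3 and NRG1 lie above 0 and HBEGF and NRG2 below it, and the intervals of the other genes include 0.

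The other ligands were measured as a list of their own with ERBB4. NRG2, a neuregulin that binds ERBB3 and ERBB4, was at 212, 170 and 220 normalized reads in si-CTRL and at 115, 109 and 91.6 in si-SAM68. It fell by 0.93 on the log2 scale (SE 0.16, 95% interval -1.29 to -0.57, adjusted p = 0.00784 by limma), with groups far apart, so that NRG1 and NRG2 moved in opposite directions. EGF was at 50.5 ± 11.1 in si-CTRL and 62.9 ± 12.2 in si-SAM68 and did not pass the test (log2 fold change 0.31, adjusted p = 0.439). BTC, NRG3 and NRG4 had means of at most 5.95 normalized reads in either group and were not tested.

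Levels can be compared between genes only per length, and reads were divided by the summed length of the exons in GENCODE. In si-CTRL the normalized read count per kb was 1217 ± 65.2 for ERRFI1, 549 ± 124 for HBEGF, 273 ± 52.7 for ERBB2 and 271 ± 18.7 for EGFR. TGFA followed with 200 ± 8.22, then NRG1 with 151 ± 18.7, AREG with 60.1 ± 18.1 and ERBB3 with 39.3 ± 2.70, and EPGN (8.49 ± 2.27) and EREG (1.87 ± 0.744) were lowest. On this length the ranges of ERRFI1, HBEGF, TGFA and NRG1 were apart from those of their neighbours, those of ERBB2 and EGFR overlapped, and that of AREG included the top of that of ERBB3. The length used changed much of this. Per kb of the longest transcript ERBB2, at 498 to 699, lay above EGFR, at 320 to 367, HBEGF (539 to 854) overlapped ERBB2, and NRG1 (267 to 330) overlapped EGFR and lay above TGFA (222 to 240.5). ERRFI1 was highest on both lengths. With the unnamed loci added EGFR rose to 996 ± 40.9 per kb, above HBEGF and ERBB2, so that its place in the order depends on the annotation.

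**Figure D3:**
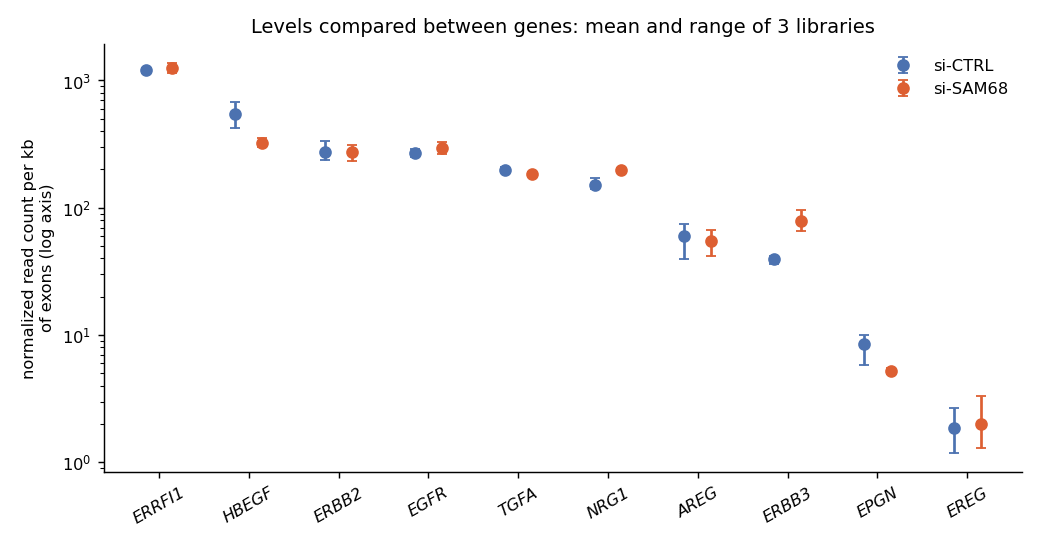
Normalized read count per kb of exons (vertical log axis) of the 10 members in si-CTRL (blue) and si-SAM68 (orange). Points are means and bars the range of 3 libraries. HBEGF is nearest to EGFR and ERBB2 in si-SAM68, and ERBB3 lies above AREG only in si-SAM68.

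In si-SAM68 the order of the levels per kb of exons shifted around the members that changed. HBEGF was at 323 ± 26.5 per kb, within the spread of EGFR (292 ± 31.8), and NRG1, at 199 ± 5.32, was above TGFA at 183 ± 6.82. ERBB3 was at 66.0 to 95.3 with a mean of 78.8, and AREG at 42.2 to 66.4 with a mean of 55.2. Sums over the family, formed after the values were seen and given without a test, describe the same shift. Of the summed level per kb of all ligands, HBEGF made up 48.9% to 57.4% in the si-CTRL libraries and 39.4% to 41.7% in the si-SAM68 libraries, and NRG1 13.5% to 16.2% and 24.3% to 25.6%. ERBB3 made up 6.29% to 7.19% of the summed receptors in si-CTRL and 11.2% to 14.1% in si-SAM68, without the unnamed EGFR loci.

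Ratios within a library do not depend on its scaling. The log2 ratio of HBEGF to NRG1 reads was 0.06, -0.31 and 0.06 for the control libraries and -1.29, -1.13 and -1.22 for the Sam68-depleted libraries. The 2 ligands were thus at similar read counts in control cells, and NRG1 had more reads than HBEGF in all libraries of Sam68-depleted cells. These counts are not corrected for length. Per kb of exons HBEGF stayed above NRG1 in si-SAM68, at 323 ± 26.5 against 199 ± 5.32. Per kb of the longest transcript their si-SAM68 ranges overlapped, at 378 to 444 and 371 to 391. The log2 ratio of ERBB3 to EGFR was -3.25, -3.26 and -3.25 in si-CTRL and -1.95, -2.59 and -2.57 in si-SAM68. These pairs were chosen after the values were seen, so the shifts of -1.15 and 0.88 are descriptions.

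The 3′UTRs of the members were searched for the 7 bases in capitals of each siRNA, using the longest 3′UTR of a gene in GENCODE. This was done after the values were seen. At least 1 match to the SAM68 pool was present in 4 of 10 members (EREG, HBEGF, TGFA and NRG1) and in 26.2% of 19164 genes with a 3′UTR. A match to the control pool was present in 7 of 10 members and in 9581 of the 19164 genes. The sites below are those of the receptor and the ligand that changed most among the 10 members. Beside them are the 2 matches of TGFA, which did not pass the test, to the SAM68 pool. TGFA also had 5 matches to the control pool, which are not printed. The 3′UTR of NRG2, which is not a member, was not searched. Capitals mark the match.
HBEGF, siSAM68_2: aagcccaaggTGCTGATgtcaaagtgt
TGFA, siSAM68_3, first site: aatgctactaATATCTGaaaagtgaaa
TGFA, siSAM68_3, last site: attttccttaATATCTGaattatactt
ERBB3, siCTRL_2: tttccttattTTGTGTGctttcccagt
ERBB3, siCTRL_4: ccaggaaaggTTTTCCTtattttgtgt
The HBEGF match lies at chr5:140333339-140333345 on the reverse strand of GRCh38, and the same 7 bases are present in the 3′UTR of 12.2% of genes. The TGFA matches lie at chr2:70449364-70449370 and chr2:70447407-70447413, also on the reverse strand. ERBB3 had no match to the SAM68 pool and 2 to the control pool, at chr12:56102288-56102294 and chr12:56102277-56102283 on the forward strand. NRG1, which rose, had 1 match to siSAM68_3 and 1 to siCTRL_4. EREG, near the detection limit, had 1 match to siSAM68_3 and 2 to the control pool. A match shows only that the letters are present, and its part in any of these values was not tested.

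The neighbours of the members that changed were also examined after the values were seen. Within 100 kb of ERBB3, 13 other loci were tested and 1 had an adjusted p-value below 0.05, ESYT1, which encodes a membrane tether of the endoplasmic reticulum and had a log2 fold change of 0.29 (adjusted p = 0.0293). The log2 fold changes of these 13 loci ran from -0.20 to 0.38, all smaller than that of ERBB3, and 9 were above 0. MYL6 (0.37), RNF41 (0.34) and ZC3H10 (0.38) had si-SAM68 libraries above all control libraries but did not pass the test. PA2G4 (-0.20) and RAB5B (-0.14) had them below all control libraries and did not pass either. Of all loci tested, 10.7% passed, and the groups did not overlap for 33.9%. Within 100 kb of HBEGF 4 other loci were tested, with log2 fold changes from -0.33 to 0.40. The locus of ANKHD1, joined with EIF4EBP3, rose by 0.40 (adjusted p = 0.0151), opposite to HBEGF, and CYSTM1 (-0.11), PFDN1 (-0.11) and an unnamed locus (-0.33) had si-SAM68 libraries below all control libraries but did not pass the test. No other tested locus lay within 100 kb of NRG1. The transcripts with the pattern most like ERBB3 over the 6 libraries were SCNN1A, a sodium channel subunit (Pearson r = 0.9965), WDR55 (r = 0.9961) and ESYT1 (r = 0.9868), out of 12920 named loci with a mean of at least 50. As many as 147 loci had r above 0.95, and all points share the 2 groups of libraries.

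ERBB3 is also a gene of luminal breast cells, and the luminal markers are given beside it. FOXA1, a luminal transcription factor, had a log2 fold change of 0.64, and the keratins KRT8, KRT18 and KRT19 had 0.31, 0.35 and 0.37. These 4 of the 5 luminal markers tested rose at adjusted p-values between 0.00351 and 0.0436 by limma (4.47% of all loci rose), GATA3 did not (-0.13), and their summed level was 43390.4 to 46942 in si-CTRL and 54894 to 59647 in si-SAM68. ESR1, PGR, CDH1 and EPCAM, the rest of the list, were at or near 0 and were not tested. EPCAM was at 2.44 ± 0.505 in si-CTRL and 7.05 ± 3.49 in si-SAM68 without overlap, and the groups of ESR1 and CDH1 overlapped. Of the 8 mesenchymal markers tested, 3 passed, or 37.5% against 10.7% of all loci. CAV1 and CAV2 rose (0.62 and 0.50) and the repressor ZEB1 fell (-0.63). The other 5, VIM (-0.14), CD44 (0.17), AXL (0.27), SPARC (0.01) and FN1 (0.19), did not pass. The part of these markers in the ERBB3 value was not tested, and in bulk RNA fewer cells of a type and less RNA per cell cannot be told apart.

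The wider pathway was described by 5 lists, of which 77 of 81 genes passed the minimum level. Of these, 15 (19.5%) had an adjusted p-value below 0.05, 7 higher and 8 lower, against 10.7% of all loci. The number was 9 when any si-SAM68 library was left out, 24 without si-CTRL replicate 1 and 24 with DESeq2. The median log2 fold change was -0.04.

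Feedback and response genes, which are transcribed when the receptors signal, had the lowest median of the lists of more than 2 tested genes, a log2 fold change of -0.25. Of 19 tested, 5 fell and none rose past the test, or 26.3% against 10.7% of all loci. EGR1, an immediate early transcription factor, was at 1767, 1110 and 1055 normalized reads in si-CTRL and at 387, 508 and 391 in si-SAM68, a log2 fold change of -1.58 (SE 0.19, 95% interval -2.01 to -1.15, adjusted p = 0.00132 by limma). FOS, a subunit of AP-1, fell from 184 ± 19.9 to 91.5 ± 13.2 normalized reads (adjusted p = 0.00627). DUSP6, the phosphatase that inactivates ERK, fell by 0.86 on the log2 scale (adjusted p = 0.00357). SPRY4, an inhibitor of receptor signaling to RAS, fell by 0.73 (adjusted p = 0.0127), but its adjusted p-value ranged from 0.00697 to 0.0625 with 1 library left out and did not pass without replicate 1 or replicate 3 of si-SAM68. DUSP1, another MAP kinase phosphatase, was the remaining gene that passed, with a log2 fold change of -0.56.

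Ligand shedding, the step that frees HBEGF, TGFA and the other precursors, was represented by 10 genes. They are proteases, their helpers and the protease inhibitor TIMP3. ADAM17, the main sheddase of these ligands, was at 1784, 1551 and 1512 normalized reads in si-CTRL and at 2275, 2384 and 2398 in si-SAM68, clearly separate groups with a log2 fold change of 0.55 (SE 0.09, adjusted p = 0.00574 by limma). ADAM10, a related sheddase, rose by 0.34 (adjusted p = 0.0156), and did not pass when any si-SAM68 library was left out, with values of up to 0.0944. These were 2 of 10 genes, against 10.7% of all loci, and none fell past the test. The groups did not overlap for 7 of 10, against 33.9% of loci, and the median log2 fold change was 0.24. Of these 7, RHBDF1 (-0.30) and RHBDL2 (-0.13) were lower in si-SAM68. The others were higher, among them the inhibitor TIMP3 (0.26).

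Genes that take the receptors off the membrane or dephosphorylate them formed the list for receptor down-regulation. Of 19 tested, 3 rose and none fell past the test, or 15.8% against 10.7% of all loci, with a median log2 fold change of 0.10. PTPRJ, a receptor tyrosine phosphatase, rose by 0.54 (adjusted p = 0.0057), and LRIG3, a relative of the ERBB regulator LRIG1, by 0.45 (adjusted p = 0.0136, up to 0.0741 without replicate 1 or replicate 2 of si-SAM68). LRIG2 rose by 0.38 (adjusted p = 0.0281), but its adjusted p-value was 0.0517 with the replicate number as a block and ranged from 0.00387 to 0.122 over the alternatives.

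Adaptors and relays, the chain from the receptor tails to the kinases, were the longest list. Of 27 tested, 2 rose and 2 fell past the test, or 14.8%, a share near the 10.7% of all loci, and the median log2 fold change was 0.00. MAP2K1, which encodes the kinase MEK1, was at 3521, 3872 and 3883 normalized reads in si-CTRL and at 2737, 2742 and 2750 in si-SAM68, a log2 fold change of -0.45 (SE 0.08, adjusted p = 0.00655 by limma). GAB2, a docking protein for PI3 kinase, fell by 0.61 (adjusted p = 0.0184). STAT3, a transcription factor that the receptors activate, rose by 0.31 (adjusted p = 0.0301), and PIK3R2, a regulatory subunit of PI3 kinase, by 0.52 (adjusted p = 0.0181), but its locus is joined with IFI30 and the reads cannot be told apart. GAB2, PIK3R2 and STAT3 did not pass when any of the si-SAM68 libraries was left out, with adjusted p-values of up to 0.0751, 0.075 and 0.132, and STAT3 also not without replicate 2 or replicate 3 of si-CTRL or without the filter on low values.

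**Figure D4:**
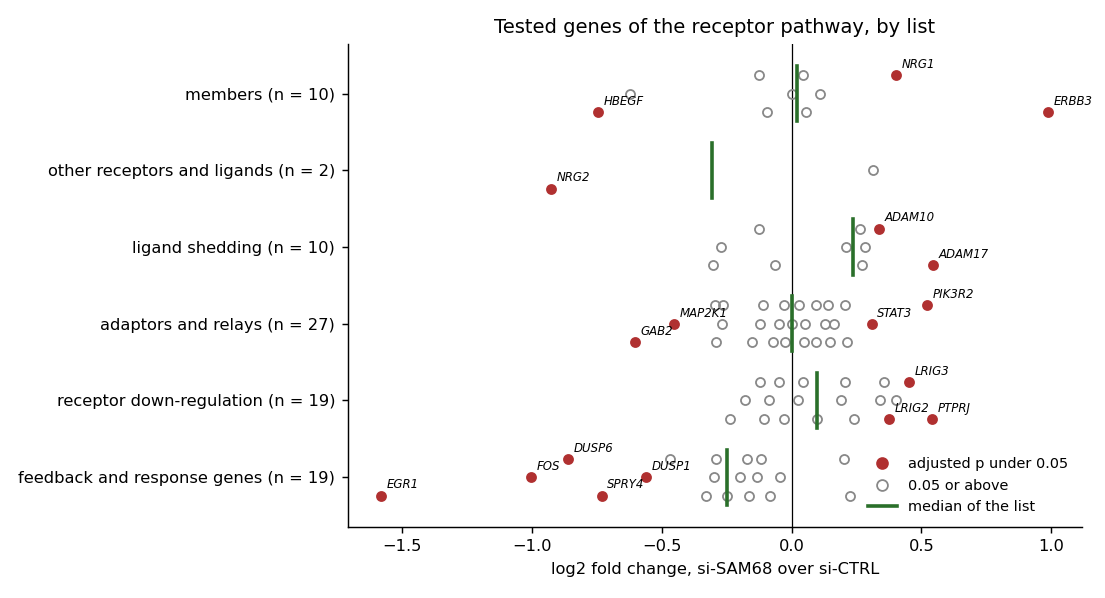
Log2 fold change of si-SAM68 over si-CTRL (horizontal axis) of each tested gene, by list (rows, with the number tested). Filled red points have an adjusted p-value below 0.05, open points do not, and green lines are medians. The feedback and response genes have their median at -0.25 and the shedding genes at 0.24.

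The direction of the members that passed was the same under each of the 16 alternatives tried.

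**Figure D5:**
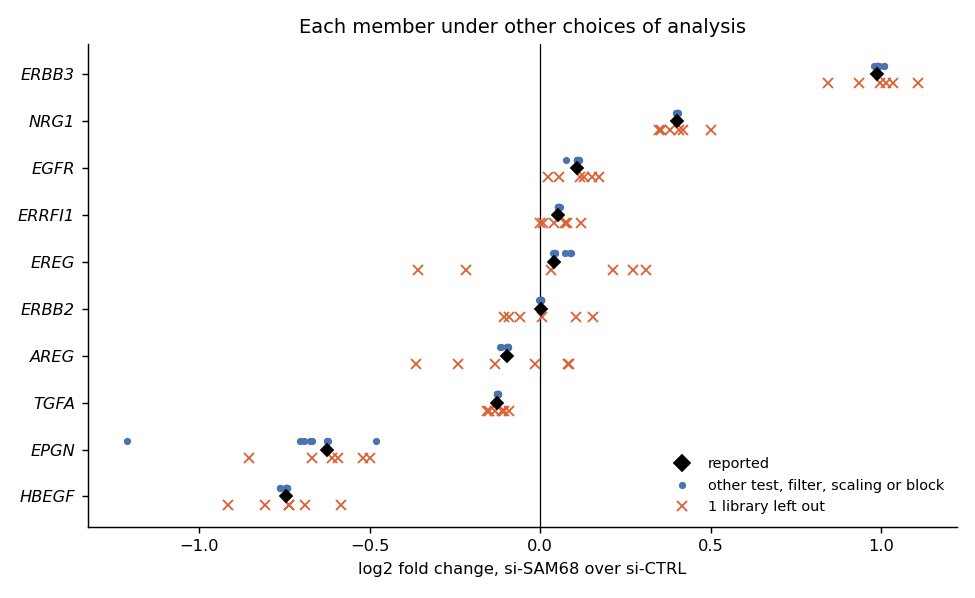
Log2 fold change of each member (horizontal axis) as reported (black diamond), with another test, filter, scaling, block or set of loci (blue points) and with 1 library left out (orange crosses). ERBB3, NRG1 and HBEGF keep their sign throughout, whereas EREG, ERBB2, AREG and ERRFI1 fall on both sides of 0.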

How the data were processed

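Polyadenylated RNA of 6 samples was sequenced. Per the labels the libraries were made with a stranded kit, and the submitters' processing notes name FastQC, Picard, SAMtools, STAR 2.4.0 and DESeq2 with build hg19. The paper's methods give another harvest time, medium and RNA kit than the labels. The authors deposited a signal, which is the read count on each FAST DB locus (v2016_1) divided by a DESeq2 size factor. Dividing by the smallest step of a library gave whole reads for 100% of values (tolerance 0.01), which were used in the count tests. Whether counting used strand is not given in the sources used here.

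Values were tested with limma 3.58.1 in R 4.3.3 (lmFit, eBayes with a trend) on log2(value + 1), over the 18849 loci whose mean reached 10, without a replicate term, with Benjamini-Hochberg adjustment over all of them. The scripts were tested on simulated data. Coordinates of loci are hg19, as deposited; lengths, 3′UTRs and sites are from GENCODE v29 (GRCh38), and the siRNA sequences from the study's supplementary tables.

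Named genes are all 10 members, KHDRBS1, the markers and the 3 loci most like ERBB3. In each pathway list they are at most 4 genes with an adjusted p-value below 0.05, no overlap and the largest change. Named outside this rule are DUSP1, RHBDF1, RHBDL2 and TIMP3, the other receptors and ligands, and loci near or overlapping a member. The members and lists were chosen with earlier results of these data known. Samples of the same replicate number deviated together from their group means (r = 0.11, 0.23 and 0.13 over all tested loci). For different numbers r was -0.13 to 0.01. The numbers, taken from the sample titles, were therefore used as a replicate block in alternatives, whereas the main test left this pairing out. Alternatives were the pseudocounts 0.1 and 5, no filter or a minimum of 50, TMM factors, edgeR 4.0.16, DESeq2 1.42.0, a replicate block, leaving out each library and, added after the values were seen, adding unnamed overlapping loci. The number of libraries and reads limits the precision; replicates differed by more than sampling noise.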

Additional observations from a re-analysis of the deposited data

How the results depend on the processing

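The number of members with an adjusted p-value below 0.05 was 3, and 1 to 3 when a library was left out. With unnamed overlapping loci added, an alternative chosen after seeing the data, it was 4 and the members past the study's thresholds were 3. EPGN was the addition, through an unnamed locus that reaches beyond its ends. The replicate block left the number below 0.05 at 3 (ERBB3 0.0058, HBEGF 0.0328, NRG1 0.0474). Among the pathway genes named, it changed only the call of LRIG2. ERBB3 was below 0.05 under all 16 alternatives (log2 fold change 0.84 to 1.11), HBEGF under 14 and NRG1 under 11. The members past the study's thresholds were 2, 1 to 2 with a library left out, and 0 at a fold change of at least 2, which ERBB3 missed by 0.01 in log2 units. The pathway genes below 0.05 numbered 15, against 24 with DESeq2 and 9 to 24 with a library left out, 24 being the number without si-CTRL replicate 1 and 9 that when any si-SAM68 library was left out; the cause was not tested.

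The sign of members near 0 was not stable. ERBB2 was at -0.0010 with edgeR and -0.0030 with DESeq2, and with a library left out it ran from -0.11 to 0.15, EREG from -0.36 to 0.31, AREG from -0.36 to 0.0860 and ERRFI1 from -0.0012 to 0.12. DESeq2 gave no adjusted p-value for EPGN and EREG, and a minimum of 50 left 8 members.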
